A study of Mus musculus with 4 samples.

Results

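Collagen genes were taken as every symbol made of Col, a number, a and a number, which gave 44 of the 23635 genes listed in the 4 libraries. The control 2 library listed 43 of them, without Col10a1. The libraries are single-cell RNA sequencing of tumours transplanted into mice from Py8119, an established mouse mammary carcinoma line of mesenchymal character. There were 2 control libraries, whose titles carry the tag NC, and 2 libraries of tumours carrying a short hairpin RNA (shRNA) against Sema4d, a transmembrane semaphorin. Both groups share the line and the transplantation. The strain and age of the host mice, the control hairpin and whether a library is 1 tumour or a pool were not given in the sources used here. The p-values below therefore measure the spread between these libraries, which may be technical.

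Collagens are proteins of 3 chains wound into a triple helix, in which glycine opens each triplet of residues. Fibrillar collagens (types I, II, III, V, XI, XXIV and XXVII) pack into fibres, and most of them have a long unbroken helix. Type I needs both an alpha 1 and an alpha 2 chain in its usual form. Type IV collagen has a helix with many breaks and forms the network of basement membranes. Type VI makes beaded filaments from alpha 1, alpha 2 and a further chain such as alpha 3, and multiplexins (types XV and XVIII) lie at the basement membrane zone. In tumours, fibroblasts are known as the main makers of fibrillar collagen, and endothelial and mural cells (pericytes and smooth muscle of vessels) build vascular basement membrane.

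The difference in helix can be read in the coding sequences of the genes the results turn on. Below are exons of the GENCODE M21 models (GRCm38), each 5′ to 3′ on the coding strand and starting in frame, with the glycine codons (GGN) in capitals. All lie in coding exons of the helix. The first 4 are fibrillar, and in each, every triplet of codons opens with glycine.
Col1a1 exon 8, chr11:94939904-94939957, plus strand: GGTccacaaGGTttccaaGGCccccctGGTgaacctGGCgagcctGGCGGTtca
Col1a2 exon 8, chr6:4515481-4515534, plus strand: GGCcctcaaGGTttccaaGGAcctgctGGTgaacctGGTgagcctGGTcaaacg
Col3a1 exon 6, chr1:45325360-45325413, plus strand: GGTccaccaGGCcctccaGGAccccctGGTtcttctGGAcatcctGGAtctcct
Col5a1 exon 15, chr2:27965251-27965304, plus strand: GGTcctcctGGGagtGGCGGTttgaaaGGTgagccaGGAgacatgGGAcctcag
The chains of type VI also hold some 54-base exons, in a shorter helix. Those shown were picked for that length, as the fibrillar ones were. Of the coding exons inside the helix, 3 of 19 had it in Col6a1, 2 of 18 in Col6a2 and 3 of 17 in Col6a3.
Col6a1 exon 9, chr10:76719623-76719676, minus strand: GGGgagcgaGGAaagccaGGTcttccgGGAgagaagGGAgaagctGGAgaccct
Col6a2 exon 6, chr10:76611948-76612001, minus strand: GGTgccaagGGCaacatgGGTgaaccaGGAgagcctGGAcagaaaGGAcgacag
Col6a3 exon 23, chr1:90791924-90791977, minus strand: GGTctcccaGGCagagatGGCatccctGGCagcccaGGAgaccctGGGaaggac
In type IV and type XVIII the register of glycines breaks within an exon, which is why the next exons are shown.
Col4a1 exon 9, chr8:11244486-11244569, minus strand: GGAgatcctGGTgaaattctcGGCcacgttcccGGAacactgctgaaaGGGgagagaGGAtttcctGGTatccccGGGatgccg
Col4a2 exon 8, chr8:11402163-11402234, plus strand: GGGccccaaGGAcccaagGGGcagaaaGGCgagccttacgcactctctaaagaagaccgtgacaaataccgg
Col18a1 exon 10, chr10:77078276-77078353, minus strand: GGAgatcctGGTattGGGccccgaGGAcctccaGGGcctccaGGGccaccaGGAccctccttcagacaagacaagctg

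All 44 symbols matched a gene model. The longest unbroken run of glycine-led triplets was 338 in Col1a1, 339 in Col1a2, 344 in Col3a1 and 338 in Col5a1. Over the 11 fibrillar genes it ranged from 216 to 344 triplets with a median of 338, and was shortest in Col24a1 (216) and Col27a1 (217). Over the 6 type IV genes it ranged from 39 to 66 with a median of 43.5. Col4a1 had 21 interruptions between its runs and Col18a1 had 15. Of the 543 coding exons inside the fibrillar helices, 56.2% were exactly 54 bases long, against 4.67% of the 257 in type IV. The longest run was 87 triplets in Col6a1 and Col6a2 and 45 in Col6a3.

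**Figure D1:**
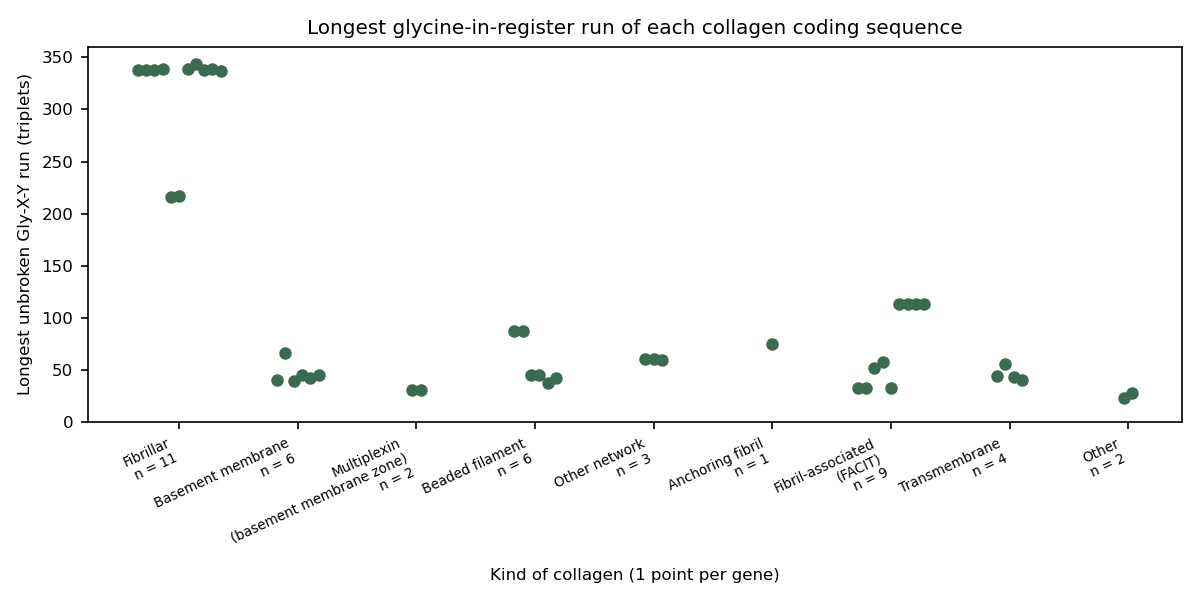
Longest unbroken run of glycine-led triplets (y axis, triplets) in the coding sequence of each of the 44 collagen genes, 1 point per gene, by kind of collagen (x axis). The 11 fibrillar genes lie between 216 and 344, above all the other 33, which lie between 23 and 113.

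The libraries held 10575 to 13173 cells and 83513906 to 119758159 unique molecular identifiers (UMIs, each standing for 1 captured RNA molecule), with a median of 5690 to 8180 UMIs per cell. Collagens were used neither to cluster the cells nor to name the classes. Tumour-like cells were those of clusters with tumour markers that no host marker list claimed. They numbered 5902 and 5407 in the controls, against 7275 and 8425 in the shRNA libraries. Fibroblast-like cells numbered 37 and 17 against 29 and 106, endothelial-like cells 9 and 8 against 15 and 23, and mammary epithelial-like cells 35 and 11 against 20 and 43. Mural-like cells numbered 9, 0, 8 and 7. All 13 fibroblast markers and all 11 endothelial markers reached 20 CPM (counts per 1000000 UMIs) in their class in each library. Of the 13 mammary epithelial markers 7 or 8 did, and Csn2 was at 0 in each library. Sema4d itself was counted at 6.59 and 7.35 CPM in tumour-like cells of the controls, against 3.93 and 5.38 with the shRNA, a log2 change of -0.53 (SE 0.17, adjusted p = 0.238, edgeR quasi-likelihood test), so the 2 groups did not overlap but the change did not pass the threshold of 0.05.

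All levels are in CPM, from the UMIs of a gene in the summed cells of a class relative to all UMIs of those cells. The order of the libraries is control 1, control 2, shRNA 1 and shRNA 2 throughout. Collagens together made up 2.83%, 3.49%, 3.33% and 3.72% of the UMIs of fibroblast-like cells. In mural-like cells, absent from control 2, they made up 2.59%, 2.16% and 2.04%, and in endothelial-like cells 0.759%, 0.713%, 0.496% and 0.602%. In tumour-like cells the share was 0.118%, 0.131%, 0.128% and 0.101%, and in mammary epithelial-like cells 0.0311%, 0.0371%, 0.029% and 0.0293%. These 5 ranges did not overlap one another. T and NK-like cells, which are not known to make collagen, had 0.0106% to 0.0126%, and these UMIs can come from free RNA in the droplets. By the keratins of the tumour cells, free RNA in T and NK-like cells came to 4.69%, 4.04%, 6.95% and 6.64% of the library's mix.

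**Figure D2:**
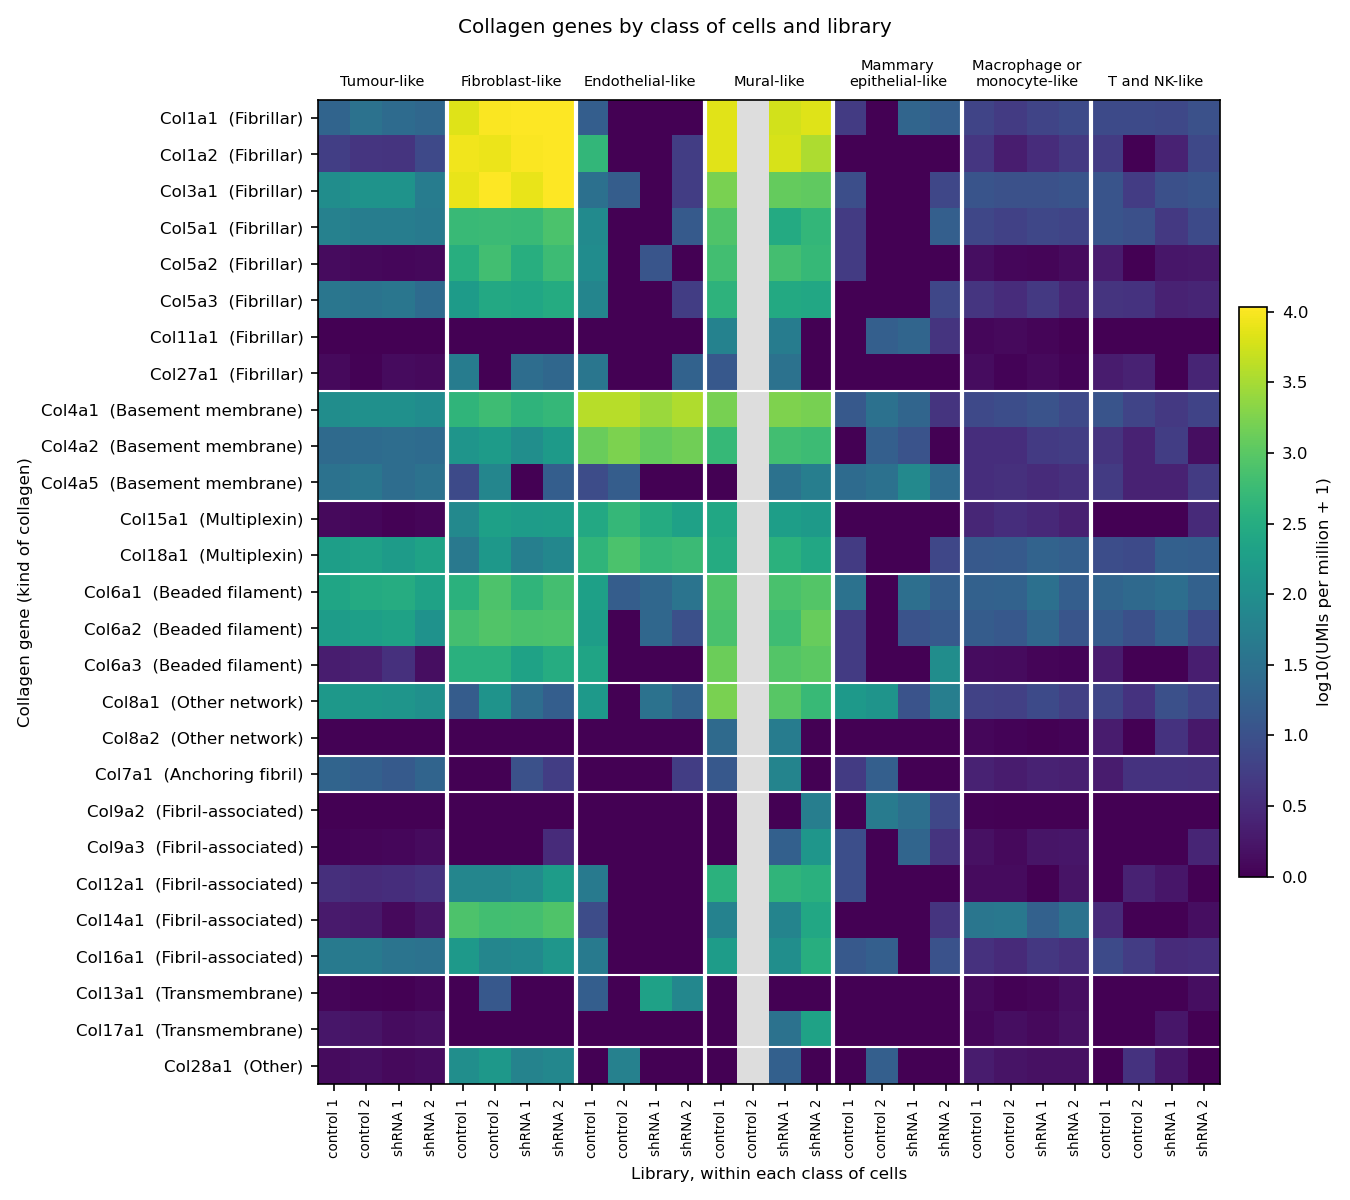
Level of each collagen gene that averaged at least 20 CPM in a class (rows, by kind of collagen) in each library of each class (columns), as log10(CPM + 1). Fibrillar genes peak in fibroblast-like and mural-like cells and Col4a1 and Col4a2 in endothelial-like cells, while tumour-like cells show most of their signal outside Col1a2, Col5a2 and Col6a3. Grey marks the missing mural-like cells of control 2.

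In fibroblast-like cells 20 of the 44 collagens averaged at least 20 CPM, and 14 had no UMI. Col1a1, the alpha 1 chain of type I collagen, was at 6975, 10122, 10749.5 and 10499 CPM. Its partner Col1a2 was at 9004, 8146, 10376 and 10659 CPM, and Col3a1, whose product makes the homotrimer of type III, at 7975, 10835, 7889 and 10503 CPM. Both type I chains were higher in the 2 shRNA libraries than in the 2 controls, while Col3a1 overlapped between the groups. Outside tumour-like cells the share of all genes that separate the groups so is not given here. In tumour-like cells it was 43.8%. UMIs of the 11 fibrillar genes made up 87.8% to 90.7% of the collagen UMIs of these cells.

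Around the fibril, the fibroblast-like cells carried the minor fibrillar chains Col5a1 (542 to 771 CPM), Col5a2 (336 to 655 CPM) and Col5a3 (161 to 305 CPM), which regulate fibril assembly. The fibril-associated Col14a1 ranged from 655 to 836 CPM, Col16a1 from 70.1 to 154 CPM and Col12a1 from 70.0 to 167 CPM. All 3 main chains of type VI were present, with Col6a1 at 371 to 795, Col6a2 at 686 to 865 and Col6a3 at 213 to 364 CPM. At the basement membrane, Col4a1 ranged from 426 to 596, Col4a2 from 97.7 to 164, Col15a1 from 77.0 to 199 and Col18a1 from 42.0 to 140.3 CPM. Among these genes, both shRNA libraries lay above both controls for Col12a1 and below them for Col6a3. Col28a1, a collagen outside the other kinds, ranged from 62.2 to 140.3 CPM on 14, 12, 7 and 33 UMIs, with both shRNA libraries below both controls. The limit given for the type I chains holds for these separations too. Col8a1, Col27a1 and Col4a5 passed 20 CPM on 22, 20 and 14 UMIs in all.

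In endothelial-like cells the type IV chains stood out. Col4a1 was at 3948, 4041, 2661 and 3604 CPM and Col4a2 at 1278, 1728, 1224 and 1456 CPM, so the 6 type IV genes took 69.0% to 84.1% of the collagen UMIs. The multiplexins were the other group, with Col18a1 (the source of endostatin) at 439, 776, 479 and 568 CPM and Col15a1 at 272, 483, 298 and 204 CPM. The transmembrane Col13a1 was at 15.1, 0, 202 and 73.6 CPM, on UMIs in 5 of 15 cells of shRNA 1 and 5 of 23 cells of shRNA 2. For Col4a1 both shRNA libraries lay below both controls and for Col13a1 above them, each over 8 to 23 cells per library and without a test.

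The fibrillar UMIs of endothelial-like cells rested on very few cells. In control 1, all 61 UMIs of Col1a2, all 30 of Col6a3 and all 26 of Col6a1 came from 1 of the 9 cells. The sum of the 9 mural markers was 1127 CPM in that library, with none of them at 0, against 53.2 to 205 CPM in the other endothelial-like sums. In the other 3 libraries Col1a2 was at 0, 0 and 4.33 CPM. Whether a mural cell lies among the endothelial-like cells of control 1 was not tested.

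Mural-like cells joined both patterns. Col1a1 was at 7265, 5676 and 6838 CPM and Col1a2 at 7083, 6278 and 3432 CPM in control 1, shRNA 1 and shRNA 2. Col4a1 was at 1586, 1805 and 1624 CPM, which was 3.33 to 4.23 times its level in the fibroblast-like cells of the same library. Col6a3 was 3.34 to 4.27 times as high as in fibroblast-like cells, at 1344, 911 and 1048 CPM, whereas Col3a1 was at 0.105 to 0.211 times the fibroblast-like level. Col8a1, a short-chain network collagen, was at 1683, 976 and 524 CPM, against 14 to 117 CPM in fibroblast-like cells. Each mural-like sum comes from 7 to 9 cells, so these are descriptions of single libraries. The 13 mammary epithelial markers summed to 0, 423 and 1022 CPM in the mural-like cells of control 1, shRNA 1 and shRNA 2. Whether epithelial cells lie among them was not tested.

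Mammary epithelial-like cells had 4 collagens at 20 CPM or more on average. Col8a1 was at 151, 124, 9.68 and 52.4 CPM, on 63 UMIs in all, and Col4a5 at 24.5, 30.9, 77.4 and 24.7 CPM, on 24 UMIs. Col6a3 was at 4.09, 0, 0 and 92.5 CPM, so its mean came from shRNA 2 alone, where 15 of 43 cells held its 30 UMIs. Col9a2 passed on 8 UMIs. Type I chains were near the free RNA level, with Col1a2 at 0 in each library.

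In tumour-like cells 12 of the 44 collagens averaged at least 20 CPM, and all 44 had at least 1 UMI. Just inside that limit lay Col1a1 and Col4a2, with means of 24.1 and 25.2 CPM, and just outside lay Col7a1 and Col4a6. The network and filament genes were led by the type VI chains, with Col6a1 at 231, 296, 318 and 208 CPM and Col6a2 at 169, 191, 213 and 114 CPM. Both were highest in shRNA 1 and lowest in shRNA 2, with the controls between them. Col8a1 was at 140.4, 134, 126 and 105 CPM, with both shRNA libraries below both controls.

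At the basement membrane, tumour-like cells had Col4a1 at 95.8, 104, 104 and 91.3 CPM, Col4a2 at 24, 25.1, 26.7 and 24.9 CPM and Col4a5 at 32.2, 37.2, 27 and 32.6 CPM. Col18a1 was at 184, 199, 160.1 and 208 CPM. Unlike the fibrillar genes it was lower in fibroblast-like cells, at 0.228 to 0.704 times the tumour-like level of the same library. All 4 of these genes overlapped between the groups.

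Of the fibrillar genes, Col3a1 was at 95.5, 115, 119 and 48.6 CPM, with shRNA 2 alone below the other 3. Col5a1 was at 58.3, 50.4, 50.9 and 44.5 CPM, Col5a3 at 37.7, 33.0, 36.7 and 24.3 CPM and Col1a1 at 18.7, 32.0, 24.7 and 20.9 CPM. These too overlapped between the groups. The fibril-associated Col16a1 was at 42.9, 42.9, 35.3 and 32.6 CPM, and both shRNA libraries lay below both controls. Fibrillar UMIs made up 14.5% to 18.3% of the collagen UMIs of tumour-like cells.

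Free RNA, as seen in T and NK-like cells, lay below these levels. In T and NK-like cells of the same libraries Col6a1 was at 19.0, 22.9, 27.7 and 17.2 CPM, so the lowest ratio of tumour-like to T and NK-like level was 11.5. Over the 12 collagens this lowest ratio ran from 2.27 for Col1a1 and 4.86 for Col3a1 to 14.4 for Col8a1. Col6a1 had a UMI in 66.9% to 75.4% of tumour-like cells and in 4.79% to 6.49% of T and NK-like cells, at median depths of 8139 to 9950 and 2017 to 2115 UMIs per cell. At 1000 UMIs per cell the shares were 18.7% to 27.7% and 1.69% to 2.16%, so the gap was there at equal depth too.

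Partner chains were not balanced alike in tumour-like and stromal cells. For each 100 UMIs of Col1a1, tumour-like cells held 24.6, 10.2, 12.3 and 33.0 UMIs of Col1a2, against 129, 80.5, 96.5 and 102 in fibroblast-like cells. Per 100 UMIs of Col5a1 they held 0.388 to 0.529 of Col5a2, against 61.5 to 117. Per 100 UMIs of Col6a1 they held 0.192 to 0.827 of Col6a3, against 45.6 to 98.1. The 3 ranges of tumour-like cells lay wholly below those of fibroblast-like cells, and mural-like cells held 50.2 to 111, 79.4 to 233 and 118 to 163. Col6a6, another chain of type VI, was at 4.19, 4.43, 3.597 and 3.90 CPM in tumour-like cells. That was above Col6a3, at 1.11, 1.23, 2.63 and 0.399 CPM. The Col6a6 level in T and NK-like cells was 4.997, 8.59, 1.46 and 4.79 CPM, so the ranges of the 2 classes overlapped.

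**Figure D3:**
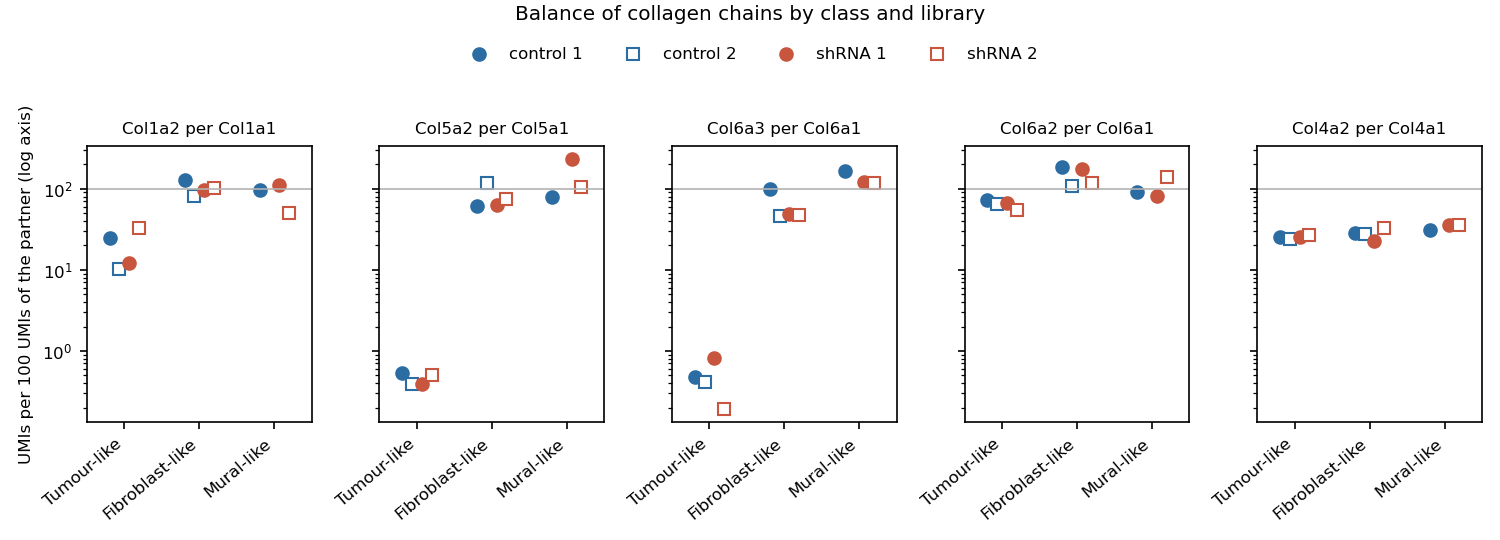
UMIs of a collagen chain per 100 UMIs of its partner (y axis, log scale) in tumour-like, fibroblast-like and mural-like cells, 1 point per library. Col5a2 and Col6a3 lie below 1 per 100 in tumour-like cells and above 45 in both other classes, while Col4a2 per Col4a1 lies between 22.9 and 36.0 in all 3.

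Other pairs differed less between the classes. Col4a2 per 100 UMIs of Col4a1 was 24.3 to 27.2 in tumour-like, 22.9 to 32.4 in fibroblast-like, 31.3 to 36.0 in mural-like and 32.4 to 46.0 in endothelial-like cells. The 2 genes lie head to head on chromosome 8. Col6a2 per 100 UMIs of Col6a1 was 54.8 to 73.1 in tumour-like and 109 to 185 in fibroblast-like cells, a smaller gap than for Col6a3. In tumour-like cells Col1a2 was at 4.61, 3.25, 3.04 and 6.88 CPM, beside 4.0, 0, 1.46 and 6.39 CPM in T and NK-like cells, so the ranges of the 2 classes overlapped. A UMI of Col1a2 was found in 2.42% to 5.73% of tumour-like cells and in 100.0% of fibroblast-like cells in each library. At a fixed 1000 UMIs per cell the means were 0.429% and 97%.

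Tumour-like cells outnumbered fibroblast-like cells by far, and the class with the higher level was not always the class with most of the UMIs. Of all UMIs of named cells, tumour-like cells held 97.3% to 98.8% for Col6a1, 97.4% to 98.4% for Col18a1 and 87.6% to 95.1% for Col4a1. They held 47.3% to 91.2% for Col3a1, whose level was 66.2 to 216 times as high in fibroblast-like cells. For Col1a2 and Col5a2 they held 11.1% to 19.98% and 6.71% to 17.8%, and fibroblast-like cells held 55.5% to 85.7% and 33.1% to 85.6%. Dissociation frees cell types with unequal success, so these shares describe the cells recovered.

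Within tumour-like cells, 7 clusters were compared library by library. Clusters 0 and 1 both carried Ly6 genes, cluster 0 with interferon genes and cluster 1 with Igfbp4 and Mgp. Cluster 3 carried immediate early genes with Mgp and Slpi, and clusters 5 and 14 cell cycle genes. Cluster 2 was led by mitochondrially encoded genes and cluster 4 by Gm43738 and Krt18, and neither met a list of states. Of the tumour-like cells, cluster 1 held 20.1% and 19.8% in the controls but 8.33% and 4.70% in the shRNA libraries, and cluster 2 held 22.4% and 13.1% against 3.22% and 8.04%. A class total therefore mixes different shares of clusters.

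Of the 12 collagens at 20 CPM or more, Col3a1, Col1a1, Col6a1 and Col6a2 differed most between these clusters. Col3a1 was at 242, 291, 349 and 157 CPM in cluster 1 and at 24.3, 32.1, 34.1 and 30.9 CPM in cluster 2. Cluster 1 had the highest Col3a1 level in each of the 4 libraries, and the highest cluster stood 8.31 to 10.2 times above the lowest. Col6a1 was at 459, 542, 786 and 521 CPM in cluster 1 and at 455, 589, 711 and 462 CPM in cluster 3, against 96.9, 115, 121 and 100.5 CPM in cycling cluster 5. The same spread was 5.18 to 8.48 times for Col6a1, 6.33 to 10.5 times for Col6a2 and 3.56 to 13.7 times for Col1a1. For each of these 4 genes the highest cluster was 1 or 3 in each library, and the lowest was 2, 5 or 14. The fibrillar Col5a1 and Col5a3, also highest in cluster 1 in each library, had smaller spreads of 2.19 to 3.65 and 1.70 to 2.86 times.

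**Figure D4:**
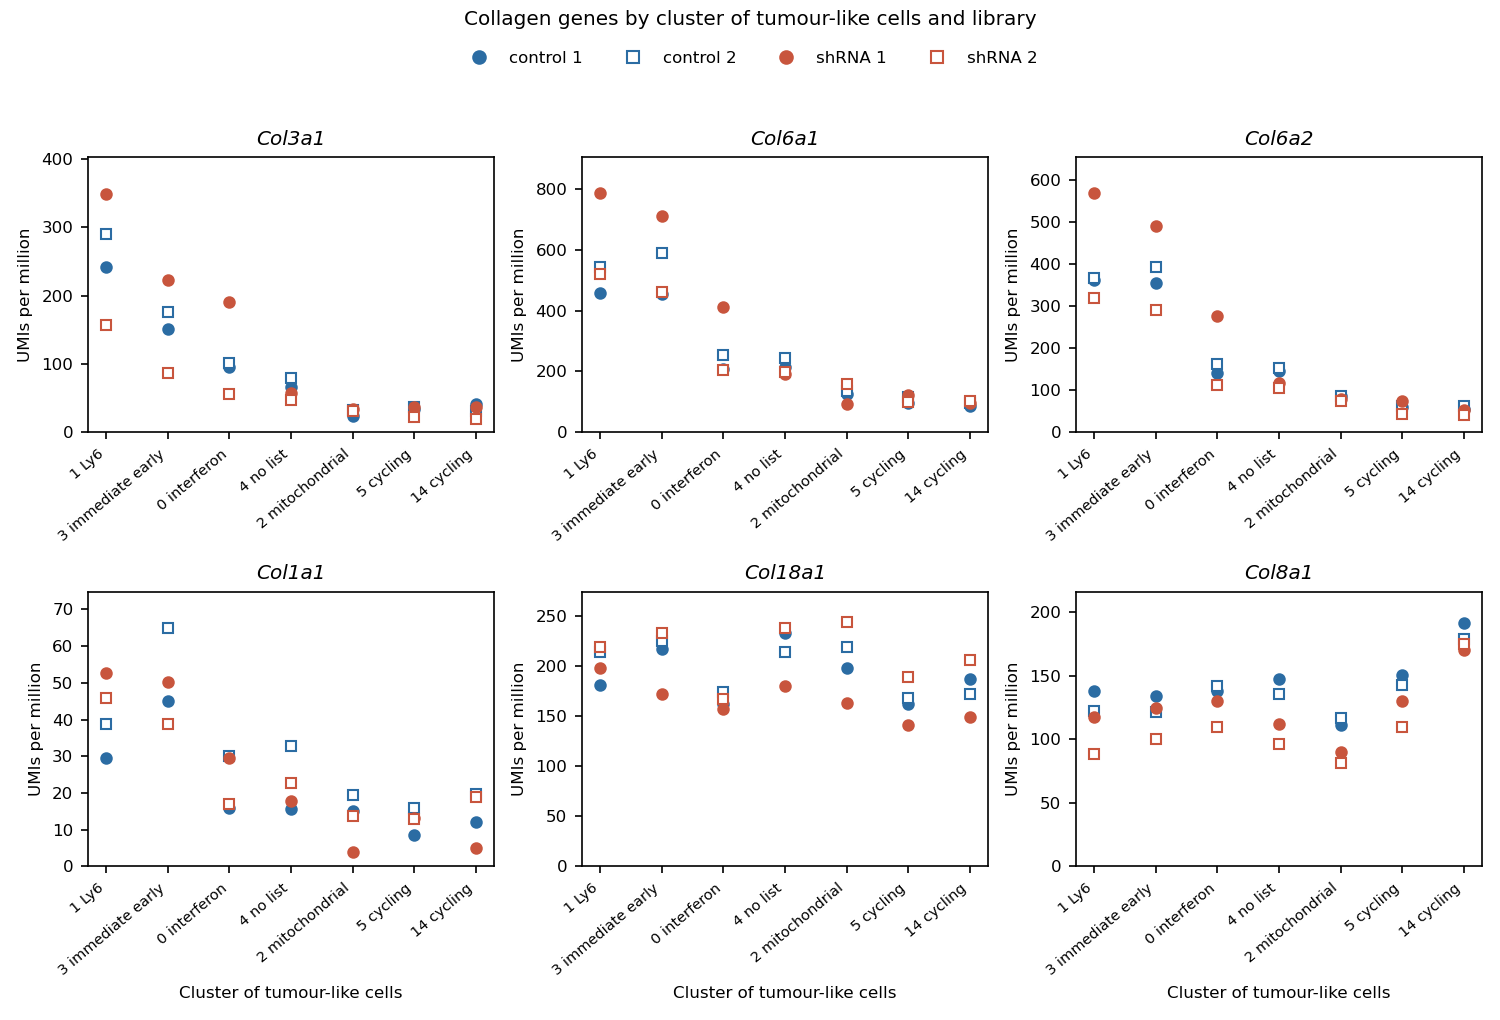
Level (y axis, CPM) of 6 collagen genes in the 7 clusters of tumour-like cells (x axis), 1 point per library. Col3a1, Col6a1, Col6a2 and Col1a1 are highest in cluster 1 or 3 in each library, while Col18a1 varies by 1.34 to 1.46 times and Col8a1 is highest in cycling cluster 14.

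Basement membrane genes were flatter than those 4. Between the highest and the lowest cluster of a library, Col18a1 differed by 1.34 to 1.46 times, Col4a2 by 1.49 to 2.00 times and Col4a1 by 1.73 to 2.35 times. Col8a1 took another order, highest in cluster 14 in each library, at 191, 179, 170.5 and 175 CPM, and lowest in cluster 2, at 111, 117, 90.1 and 81.4 CPM. Clusters are themselves drawn from the transcriptome of these cells, so the differences between them carry no test.

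Fibroblast markers were examined beside these clusters. The sum of the 13 was 470, 516, 576 and 420 CPM in cluster 1 and 153, 167, 179 and 153 CPM in cluster 5, against 18463, 13359, 15467 and 14721 CPM in fibroblast-like cells. In tumour-like cells as a whole it ranged from 243 to 326 CPM, and 2 of the 13, Gsn and Serpinf1, reached 20 CPM. Dcn, the fibroblast proteoglycan decorin, was at 28.2, 39.8, 26.1 and 19.1 CPM in cluster 1 and at 1.25 to 2.67 CPM in cluster 5. Pdgfra, another of the 13, was at 19.1, 24.03, 24.8 and 27.03 CPM in cluster 1 and at 4.57 to 6.82 CPM in cluster 5. Both were high where Col3a1 was high. Lum stayed below 1 CPM in all 7 clusters, and Col1a2 was at 1.66 to 4.27 CPM in cluster 1 and at 3.46 to 7.06 CPM in cluster 5, so the partner chain that marks fibroblast-like cells was no higher where Col3a1 was high.

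The comparison of shRNA with control asked whether knockdown of Sema4d moves the collagens of the tumour cells. Of the 44 collagens, 33 had enough counts in tumour-like cells for the edgeR quasi-likelihood test, and 0 passed an adjusted p of 0.05 in either direction, beside 87 of 14531 genes (0.599%). At an unadjusted p under 0.05 there were 5 collagens, beside 12.7% of all genes, and DESeq2 called 0 collagens as well. The change was above 0 for 10 and below 0 for 23, with a median log2 change of -0.15 against 0.01 over all genes. The groups did not overlap for 12 of the 33 (36.4%), against 43.8% of all genes tested. Of the 12, 10 were lower in the shRNA libraries (29.5% of all genes were) and 2 higher (14.4% of all genes).

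The smallest adjusted p was that of Col19a1, a fibril-associated collagen, with a log2 change of -1.04 (SE 0.22, adjusted p = 0.0933, edgeR). Its level went from 2.29 and 1.83 CPM in the controls to 0.899 and 1.047 CPM in the shRNA libraries. T and NK-like cells had Col19a1 at 2.00, 4.30, 1.46 and 0 CPM, so the ranges of the 2 classes overlapped. Macrophage or monocyte-like cells held 28.8%, 42.3%, 11.5% and 16.7% of the Col19a1 UMIs of named cells. There too Col19a1 was lower in both shRNA libraries and had the smallest adjusted p of the collagens (0.214, edgeR). Whether RNA of those cells adds to the tumour-like level of Col19a1 was not tested. Col16a1 had -0.30 (SE 0.08, adjusted p = 0.164, edgeR) on far more counts, from 42.9 and 42.9 CPM in the controls to 35.3 and 32.6 CPM. Col8a1 had -0.21 (SE 0.09, adjusted p = 0.405, edgeR). The change was 0.01 (SE 0.08) for Col4a1, 0.11 (SE 0.08) for Col4a2 and -0.01 (SE 0.14) for Col18a1.

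**Figure D5:**
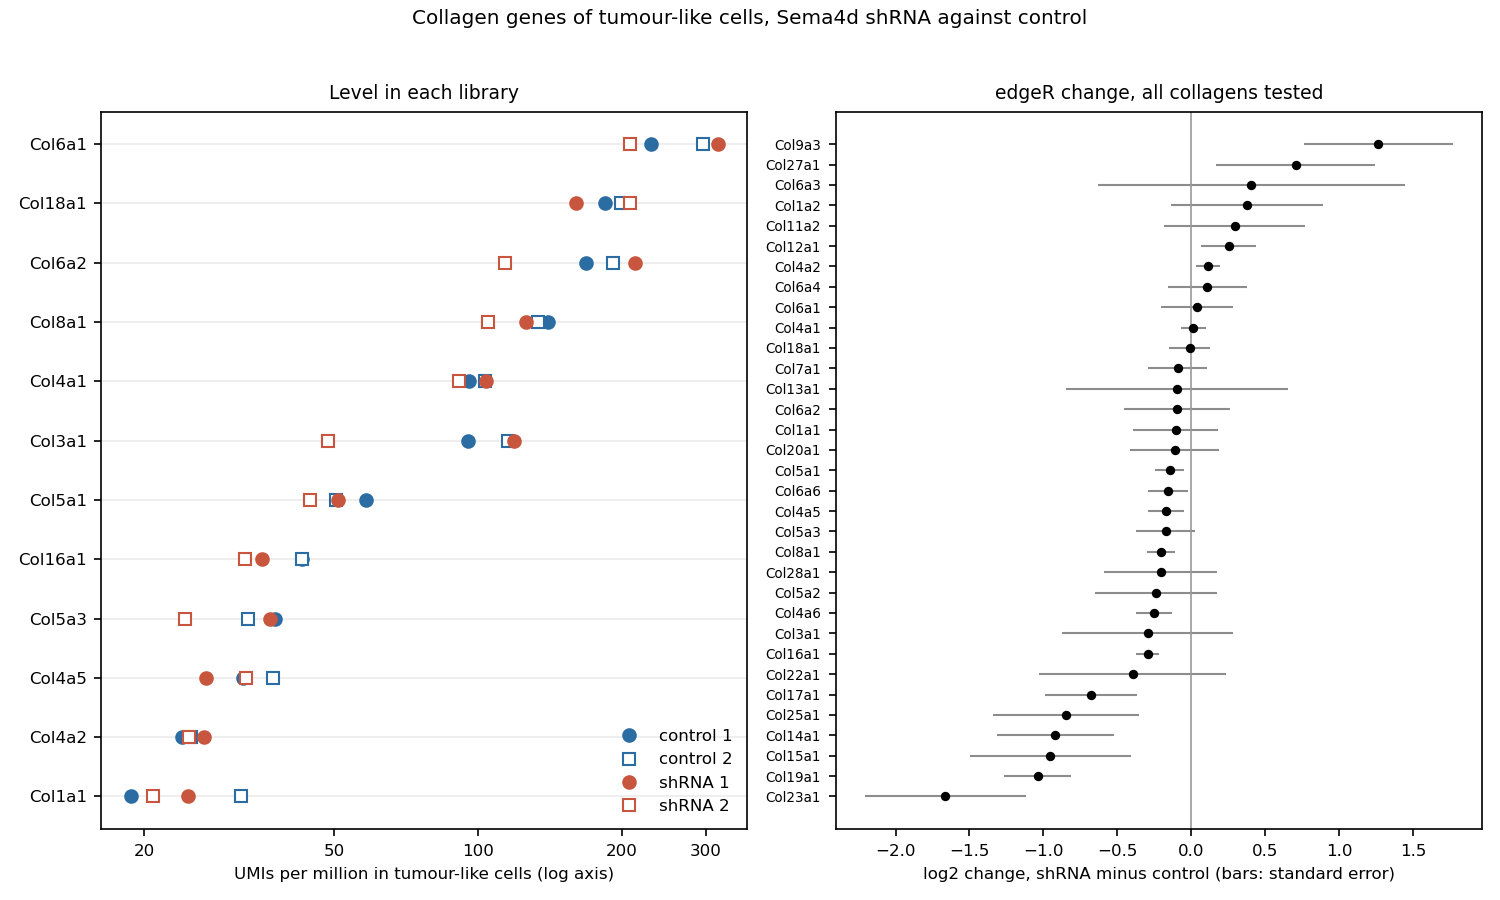
Left, level (x axis, CPM, log scale) of the 12 collagens at 20 CPM or more in tumour-like cells, 1 point per library. Right, log2 change of shRNA against control (x axis) with its standard error for the 33 collagens tested by edgeR, of which 0 passed an adjusted p of 0.05. For Col16a1 and Col8a1 both shRNA points lie left of both control points, and the Col3a1 points spread from 48.6 to 119 CPM with shRNA 1 and shRNA 2 at the ends.

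For Col3a1, Col6a2 and Col5a3 the 2 shRNA libraries pulled apart. Col3a1 had a log2 change of -0.29 (SE 0.58, adjusted p = 0.891, edgeR) over all libraries. Without shRNA 1 it was -1.05 with an adjusted p of 1.3e-05 (edgeR), and without shRNA 2 it was 0.20. Col6a2 moved in the same manner, from -0.10 over all libraries to -0.59 without shRNA 1 (adjusted p = 0.00128, edgeR) and 0.27 without shRNA 2, and Col5a3 from -0.17 to -0.47 (adjusted p = 0.0109, edgeR) and 0.08. In all, 6 of 33 collagens passed without shRNA 1, beside 3.8% of all genes, and 3 of 32 without shRNA 2, beside 4.45%. Among the others, Col6a3 moved in opposite directions, with -1.48 without shRNA 1 and 1.20 without shRNA 2. Col19a1 was lower in both fits, with -0.92 and -1.17. Col1a2 was higher without shRNA 1, with 0.86, and Col14a1 was lower without shRNA 2, with -1.64. T and NK-like cells had Col6a3 at 0.999, 0, 0 and 1.20 CPM, so its range there overlapped that of tumour-like cells.

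Within the 7 clusters the test was run on each. Of the 15 to 23 collagens tested per cluster 0 passed in edgeR or DESeq2. Of all genes edgeR called 0.449% in cluster 0, 0.946% in cluster 1, 0.194% in cluster 2, 0.735% in cluster 3, 0.657% in cluster 4, 0.514% in cluster 5 and 0.302% in cluster 14. At an unadjusted p under 0.05 there were 9 of 20 collagens in cluster 1, beside 11.1% of all genes, and 6 of 22 in cluster 4, beside 9.96%. The counts were 3 of 21 in cluster 0 (7.08% of all genes), 2 of 17 in cluster 2 (6.59%), 4 of 20 in cluster 3 (9.88%), 2 of 23 in cluster 5 (7.63%) and 1 of 15 in cluster 14 (6.08%). The smallest adjusted p of all clusters was that of Col12a1 in cluster 1, with a log2 change of 1.24 (SE 0.29, adjusted p = 0.0591, edgeR), from 2.66 and 2.49 CPM to 6.43 and 5.69 CPM. Col1a1 in the same cluster was at 29.6 and 38.8 CPM in the controls and at 52.7 and 45.8 CPM in the shRNA libraries, with a log2 change of 0.54 (SE 0.14, adjusted p = 0.0787, edgeR), which did not pass. In cluster 4, Col6a2 and Col8a1 had changes of -0.36 (SE 0.09) and -0.38 (SE 0.10), both with an adjusted p of 0.123 (edgeR). The groups did not overlap for either, but the share of all genes that separate so in cluster 4 is not given here. It was 43.8% in tumour-like cells as a whole.

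In macrophage or monocyte-like cells 21 collagens were tested and 0 passed in edgeR or DESeq2, beside 0.201% of all genes in edgeR, with 3 at an unadjusted p under 0.05 against 8.9% of all genes. Col14a1 was the only collagen to average 20 CPM there, at 38.0, 40.6, 16.7 and 31.9 CPM, with both shRNA libraries below both controls (log2 change -0.62, SE 0.28, adjusted p = 0.627, edgeR). T and NK-like cells had it at 0 to 2.00 CPM and tumour-like cells at 0.274 to 0.939 CPM. A UMI was found in 14.3%, 15.2%, 6.95% and 11.9% of these cells.

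Fibroblast-like cells fell below 20 cells in control 2, so no test had been planned for them in that case. An edgeR fit run in spite of that tested 16 collagens, of which 0 passed, as in DESeq2, beside 0.252% of 1589 genes, and 0 had an unadjusted p under 0.05, beside 5.54% of all genes. Col1a1 had a log2 change of 0.32 (SE 0.25), Col1a2 0.28 (SE 0.26) and Col3a1 -0.02 (SE 0.26). The difference of the shRNA effect between fibroblast-like and tumour-like cells was tested for 29 collagens with library as a block, and 0 passed in edgeR, beside 0.0299% of all genes. At an unadjusted p under 0.05 there were 5, beside 2.62% of all genes.

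Collagen synthesis needs a machinery of hydroxylation, folding, secretion, trimming and crosslinking. Of 71 listed genes of that machinery, with matrix partners, receptors and proteases, 64 were tested in tumour-like cells. In edgeR 0 passed, beside 0.599% of all genes. In DESeq2 3 passed (Lair1, Sec13 and Tgfbi). The share of all genes that DESeq2 called is not given here, so these 3 have no background to be read against. At an unadjusted p under 0.05 there were 13 of the 64, beside 12.7% of all genes. The change was above 0 for 26 of the 64, with a median of -0.06. By step, it was above 0 for 11 of 20 hydroxylation and folding genes, 1 of 5 secretion genes, 2 of 6 processing genes, 4 of 4 crosslinking genes, 4 of 15 matrix partners, 1 of 9 receptors and 3 of 5 degradation genes.

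Serpinh1, the collagen chaperone Hsp47, was at 7.84, 10.7, 9.42 and 10.8 CPM in tumour-like cells, against 1560.1, 1496, 1875 and 1439.8 CPM in fibroblast-like cells. Lox, which crosslinks fibrillar collagen, was at 0 to 0.151 CPM in tumour-like cells, against 209.9 to 333 CPM in fibroblast-like cells. The hydroxylases P4ha1 (141, 149, 145 and 156 CPM) and Plod2 (62.0, 64.2, 58.7 and 57.6 CPM) were well counted in tumour-like cells, as was the collagen receptor subunit Itgb1 at 352 to 393 CPM. In fibroblast-like cells P4ha1 was at 88.8 to 129 CPM, below each tumour-like value, so the 2 classes differed in opposite directions for P4ha1 and for Serpinh1 and Lox.

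Sparc, a collagen-binding matrix protein, was at 1375, 1413, 1194 and 1154 CPM in tumour-like cells, with both shRNA libraries below both controls (log2 change -0.20, SE 0.08, adjusted p = 0.353, edgeR). The procollagen protease Bmp1 had -0.21 (SE 0.11), the collagen receptors Ddr1 and Ddr2 -0.14 (SE 0.08) and -0.12 (SE 0.09), and Serpinh1 0.18 (SE 0.16). Tgfbi, a collagen-binding matrix protein, was at 8.51, 12.9, 3.61 and 5.04 CPM in tumour-like cells. Within clusters it fell in clusters 1, 3 and 4 (log2 changes -1.48, -1.25 and -1.25, adjusted p = 0.0309, 0.0101 and 0.0125, edgeR), and Pcolce2, an enhancer of procollagen trimming, fell in cluster 1 by 0.89 on the log2 scale (adjusted p = 0.0109, edgeR). These clusters called 0.946%, 0.735% and 0.657% of all genes in clusters 1, 3 and 4. The remaining pathway genes tested in the clusters did not pass. The 14 macrophage or monocyte markers summed to 287, 364, 135 and 136 CPM in tumour-like cells, higher in both controls, as Tgfbi was. Whether RNA of macrophages adds to the Tgfbi level of tumour-like cells and their clusters was not tested.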

How the data were processed

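Per the labels' protocols, tumours were digested to single cells, captured in droplets (DNBelab C Series) and read on a DNBSEQ-T7. The deposited values are raw UMI counts per gene and cell, written by PISA 1.0 per the file headers, and STAR 2.5.1b and the builds GRCh38 and mm10 are named in the submitters' processing notes. The sources used here do not give the annotation, how cells were called or whether strand was used. Cell names are running numbers, and 756 to 3782 are shared by pairs of libraries.

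From these, cells under 300 genes or over 20% mitochondrial UMIs were dropped, and the 6% with the highest scrublet scores in each library were left out as doublets, which left 42359 of 45220 cells. The automatic threshold of scrublet had marked 0% to 1.70%. Cells were clustered (scanpy 1.11.5, 30 components, Leiden resolution 1) on 2000 variable genes without collagens. Host classes were named from marker lists by a score of 1 or more, with 3 or more markers at 20 CPM. Clusters where no host list reached 1 were named tumour-like if 3 or more tumour markers reached 20 CPM. The mean of the tumour list also had to be at least 3 times that of the macrophage list. Scores of the tumour-like clusters on the tumour list were only 0.33 to 0.56, so this class is a remainder. Stromal clusters of few cells were clustered again. Raw counts were summed per library and class and tested with edgeR 4.0.16 (filterByExpr, TMM, quasi-likelihood) over all genes with Benjamini-Hochberg adjustment at 0.05, with DESeq2 1.42.0 as an alternative. The script was tested on simulated data.

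With 2 libraries per group an exact permutation test of 1 value cannot reach 0.05, so none was run. Shares of cells cover counting error only. A collagen is given in full in a class where it averaged at least 20 CPM or passed the test. The collagens, the pathway list and the alternatives were chosen with earlier results of these data known. Coordinates and exons are of GENCODE M21 on GRCm38, matched by symbol.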

Additional observations from a re-analysis of the deposited data

How the results depend on the processing

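The count of tumour-like collagens that passed edgeR was 0 over all libraries and 1 (Col19a1) with no filter on low counts, and 0 to 6 when a library was left out, with 6 without shRNA 1 and 3 without shRNA 2. It stayed 0 with DESeq2, the replicate block, doublets kept, resolution 2, collagens among the clustering genes and without the cluster led by mitochondrial genes, where the last was added after seeing the data. All genes passing moved from 87 to 265 with DESeq2, 683 with no filter and 169 with the replicate block, and to 15 to 661 without 1 library. In macrophage or monocyte-like cells 2 collagens passed with no filter, and 0 to 3 without 1 library. Within the clusters, 6 passed with no filter, 2 with the replicate block (Col6a2 and Col8a1 in cluster 4), and 1 to 16 without 1 library, with 16 without shRNA 1 (2 higher, 14 lower) and 15 without shRNA 2 (13 higher, 2 lower). Same-numbered libraries did not deviate together (r = -0.07), so the block rests on a shared number only. Where 1 library was left out, the lone library of an arm is assumed to vary like the other group. Pathway genes passing in tumour-like cells numbered 3 with DESeq2, 3 with no filter, 2 with the replicate block (Lair1 and Tgfbi), 1 with doublets kept and 0 to 6 without 1 library.

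Of 144 values of the 12 named tumour-like collagens under the alternatives, 124 kept direction and side of the threshold, 3 passed and 17 changed sign. Col18a1 turned from -0.01 to 0.0019 (DESeq2), 0.0097 (no filter) and 0.002 (without the mitochondrial cluster). Col4a1 turned from 0.01 to -0.0229 and Col6a1 from 0.04 to -0.0186 without that cluster, and to -0.0357 and -0.0052 with free RNA subtracted. Leaving out 1 library at a time gave ranges of -0.2321 to 0.187 for Col18a1, -0.4383 to 0.3229 for Col1a1, -1.052 to 0.2041 for Col3a1, -0.0596 to 0.0889 for Col4a1, -0.4738 to 0.0804 for Col5a3, -0.2741 to 0.3016 for Col6a1 and -0.5936 to 0.2746 for Col6a2. The lowest values were those without shRNA 1 for Col3a1, Col4a1, Col5a3, Col6a1 and Col6a2, without shRNA 2 for Col18a1 and without control 1 for Col1a1. The cause was not tested. Summed fibrillar and type IV levels moved by less than the spread between libraries with doublets kept. Depth limits the stromal classes, since 14 collagens had no UMI in 189 fibroblast-like cells.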
